A study of Mus musculus with 18 samples.

Results

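The mouse mitochondrial genome, a circle of 16299 bases, carries the 37 genes described here, which were chosen by their names starting with mt- among the 51912 genes counted. They were 13 mRNAs, 2 rRNAs and 22 tRNAs. Of the 13 mRNAs, *mt-Nd1*, *mt-Nd2*, *mt-Nd3*, *mt-Nd4*, *mt-Nd4l*, *mt-Nd5* and *mt-Nd6* encode subunits of NADH dehydrogenase (complex I), which passes electrons from NADH to ubiquinone. *mt-Cytb* encodes cytochrome b of complex III, *mt-Co1*, *mt-Co2* and *mt-Co3* encode the core of cytochrome c oxidase (complex IV), and *mt-Atp6* and *mt-Atp8* encode parts of ATP synthase (complex V). *mt-Rnr1* and *mt-Rnr2* encode the 12S and 16S rRNAs of the mitochondrial ribosome, and the 22 tRNAs serve that ribosome. In the annotation, 28 genes (12 mRNAs, 2 rRNAs and 14 tRNAs) lie on the plus strand, and *mt-Nd6* and 8 tRNAs lie on the minus strand.

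Each strand of the mitochondrial DNA is transcribed into long RNAs, which are cut at the tRNAs into the separate mRNAs and rRNAs. These mRNAs are translated inside the organelle by mitochondrial ribosomes, whose proteins are encoded in the nucleus and do not include RPL10A. EGFP-RPL10A, the tagged protein of these mice, is a protein of cytoplasmic ribosomes.

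The study cultured cortical astrocytes from newborn mice (postnatal day 0, equal numbers of males and females) that carried the transgene Aldh1l1-EGFP/Rpl10a (line JD130Htz, strain B6;FVB) and were hemizygous offspring of a cross to C57BL/6J. The *Aldh1l1* promoter drives EGFP-RPL10A, and translating ribosome affinity purification (TRAP) with GFP antibodies was used to collect RNA bound to the ribosomes of the tagged cells. After 14 days the cells were moved to 100 mm dishes for 6 days, kept without serum for 24 h and then given 50 mM ethanol or control medium without serum for 24 h in sealed chambers. The lysate was spun at 10,000 g, and the supernatant gave both the input (5% of the volume) and the immunoprecipitate (IP).

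The 18 libraries were IP from 6 control and 6 ethanol-treated dishes and input from 3 dishes of each treatment, numbered 4 to 6, which were also among the IP dishes. Dishes may share pooled animals, so the replicates were dishes, and p-values measure the spread between dishes. Libraries were stranded total RNA libraries after rRNA depletion, so the counts of *mt-Rnr1* and *mt-Rnr2* are what depletion left. Between 74239854 and 132810705 read pairs per library fell on genes, with a median of 84119135. The group medians were 86811528 for input control, 84265467 for input ethanol, 82866623 for IP control and 89392976.5 for IP ethanol. CPM are counts scaled to TMM library sizes, and a gene was called higher or lower at an edgeR adjusted p below 0.05 over all genes tested. Fold changes are log2 ± SE.

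IP vs. input fractions asked which RNAs were more or less frequent in the RNA collected with tagged cytoplasmic ribosomes than in the whole supernatant. Mitochondrial genes held 2.64%, 2.36% and 2.45% of the counted pairs in input control dishes 4 to 6 and 2.62%, 2.65% and 2.59% in input ethanol dishes 4 to 6. In IP control the lowest, median and highest shares were 0.133%, 0.136% and 0.155%, and in IP ethanol they were 0.114%, 0.126% and 0.142%. All 12 IP libraries lay far below all 6 input libraries, and the groups did not overlap. The mean share was 2.55% in input (n = 6) and 0.134% in IP (n = 12), a ratio of 0.0524 (two-sided exact permutation test, p = 0.000108, the smallest possible; 0.000646 adjusted over 6 tests of shares). That test treats the 18 libraries as separate, although the 6 inputs share dishes with 6 of the IPs. With input and IP of the same dish paired, IP was lower in 6 of 6 dishes (two-sided exact permutation of signs, p = 0.0313, the smallest possible with 6 pairs). Between dishes, a mitochondrial share can differ because cells contribute different amounts of RNA or because the cell types differ in number. In these bulk samples fewer cells of a type and less RNA per cell cannot be told apart between dishes. Input and IP of the same dish came from the same supernatant. However, the IP was directed at ribosomes of the tagged cells, whereas the input held RNA of all cells of the dish. Within the mitochondrial pairs, pairs on mRNA genes made up 97.4% in input and 97.0% in IP. Pairs on rRNA genes made up 2.37% and 2.93%, and pairs on tRNA genes 0.217% and 0.0897%. These classes are those of the annotated genes with both strands together, and nearly all pairs on *mt-Nd6* and on *mt-Tp*, which held almost all the tRNA pairs, came from the strand opposite to the gene.

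**Figure D1:**
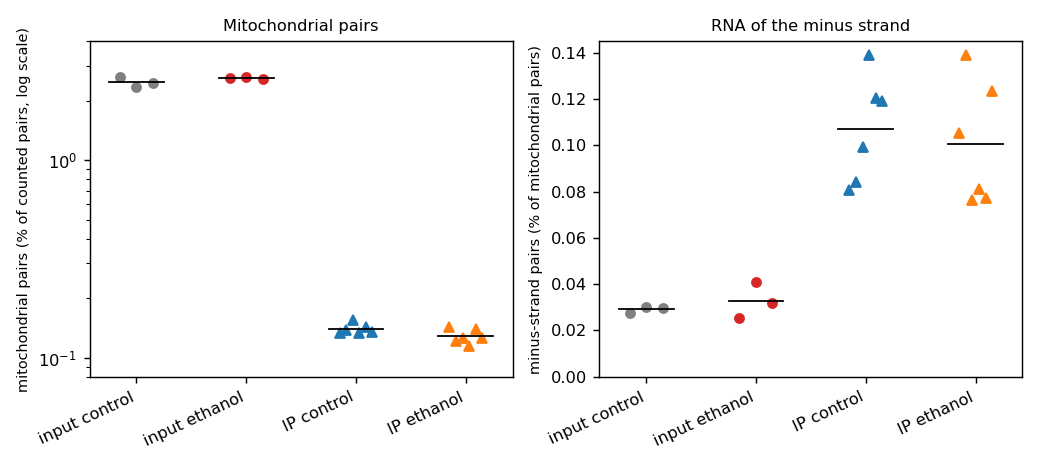
Left, mitochondrial pairs as a percentage of counted pairs in each library (log scale); right, pairs assigned to minus-strand RNA as a percentage of mitochondrial pairs; points are libraries and lines are group means. The mean mitochondrial share was 2.55% in input and 0.134% in IP, whereas the mean minus-strand share was 0.0309% and 0.104%.

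With both strands counted together, 16 members had at least 10 counts over the 18 libraries: the 13 mRNAs, the 2 rRNAs and *mt-Tp*, the tRNA for proline. The other 21 members, all tRNAs, had fewer than 10 counts, and 18 of them had 0. Pairs that lie on more than 1 gene are not counted, so a count near 0 need not mean a lack of RNA there. With both strands together *mt-Te* had 1 pair and *mt-Tt* had 0. Counted by strand, they had 10182 opposite and 394 sense pairs, whereas others, such as *mt-Tf*, had 0 there as well. *mt-Atp8* passed through its input counts alone, since the 12 IP libraries held 2 of its pairs, and its lower value in IP is in part set by the filter. All 15 members with at least 10 pairs in IP itself were called lower in IP, as was *mt-Atp8*, where 25.8% of the 24495 genes tested were called lower and 51.0% were called in either direction. Of the 22926 genes with at least 10 pairs in IP, 26.6% were lower. For each of the 15, every IP library lay below every input library, which was so for 11.9% of all genes tested. The median log2 fold change was −4.37 over the 15, against −0.01 over the 22926 genes, and −4.44 with *mt-Atp8*, against −0.03 over all genes tested.

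**Figure D2:**
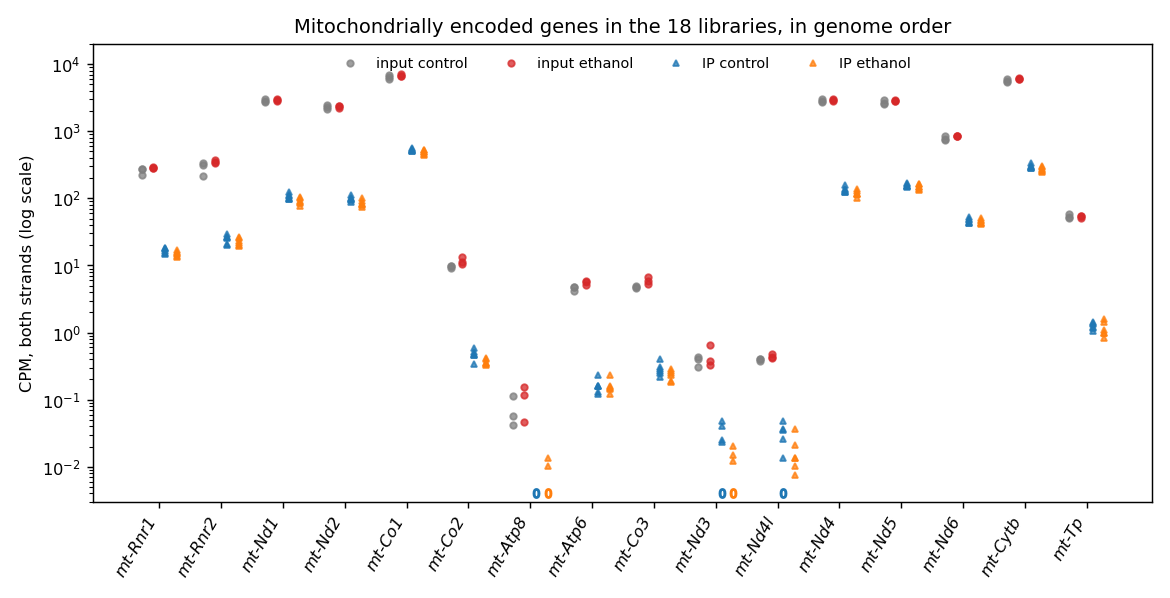
CPM of the 16 members tested in each of the 18 libraries (log scale, members in genome order; zeros are marked 0), with input control, input ethanol, IP control and IP ethanol in separate colours. For every member the IP libraries lie below the input libraries, and 6 mRNAs lie far below the other 7 in both fractions.

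Among complex I mRNAs, *mt-Nd1* (ENSMUSG00000064341, chrM:2751-3707, GRCm38), which encodes subunit 1, had 3060 CPM, 2707 CPM and 2856 CPM in input control dishes 4 to 6 and 2998 CPM, 2862 CPM and 2903 CPM in input ethanol. Its lowest, median and highest values were 96.4 CPM, 104 CPM and 125 CPM in IP control and 76.8 CPM, 90.9 CPM and 106 CPM in IP ethanol. Input was high in all 6 libraries, IP was low in all 12, and the fractions did not overlap. The log2 fold change of *mt-Nd1* was −4.87 ± 0.07 (edgeR adjusted p = 2.4e-19), or 29.3-fold lower, and 5 of the 24495 genes had a lower value. *mt-Nd2*, for subunit 2, changed by −4.67 ± 0.06, *mt-Nd4* by −4.51 ± 0.06 and *mt-Nd5* by −4.19 ± 0.05. The pairs on *mt-Nd6* changed by −4.15 ± 0.05. The short and scarcely counted *mt-Nd3* and *mt-Nd4l* changed by −4.64 ± 0.36 and −4.21 ± 0.32, from medians of 32.5 and 36.5 pairs per input library to 1.5 and 1.5 pairs per IP library.

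*mt-Co1* (ENSMUSG00000064351, chrM:5328-6872), which encodes the catalytic subunit of complex IV, changed least of the mRNAs of the plus strand. It had 6941 CPM, 6075 CPM and 6359 CPM in input control dishes 4 to 6 and 6742 CPM, 7200.2 CPM and 6679 CPM in input ethanol. The lowest, median and highest values were 505 CPM, 520.2 CPM and 569 CPM in IP control and 437 CPM, 492 CPM and 525 CPM in IP ethanol. All input libraries were again above all IP libraries. *mt-Co1* changed by −3.72 ± 0.05 (edgeR adjusted p = 4.0e-20), 13.1-fold, with 39 genes of 24495 lower. Its share of the mitochondrial mRNA pairs rose from 27.4% ± 0.627 (SD, n = 6) in input to 38.8% ± 0.709 (SD, n = 12) in IP, and the ranges, 27.0% to 28.7% and 37.5% to 39.8%, did not overlap. The share of *mt-Nd1* was 11.9% ± 0.290 in input and 7.55% ± 0.365 in IP, with ranges of 11.4% to 12.2% and 6.88% to 8.25%. These mRNA shares were described and not tested. *mt-Co2* and *mt-Co3*, for the other core subunits, changed by −4.68 ± 0.08 and −4.37 ± 0.10.

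For complex III, *mt-Cytb* had 5981 CPM, 5422 CPM and 5695 CPM in input control dishes 4 to 6, and its range in input ethanol ended at 6139.6 CPM. In IP control its lowest, median and highest values were 285 CPM, 291 CPM and 331 CPM, and in IP ethanol 248 CPM, 270.4 CPM and 307 CPM. The fractions lay apart without overlap. *mt-Cytb* changed by −4.36 ± 0.05 (edgeR adjusted p = 1.1e-20). For complex V, *mt-Atp6* had 4.72 CPM, 4.71 CPM and 4.16 CPM in input control, 5.76 CPM, 5.90 CPM and 5.04 CPM in input ethanol, and between 0.121 CPM and 0.236 CPM in the 12 IP libraries. The values were low throughout, and input lay above IP without overlap. *mt-Atp6* changed by −4.95 ± 0.10 (edgeR adjusted p = 1.2e-51), the largest decrease among the mRNAs, and *mt-Atp8* by −4.78 ± 0.73.

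Of the rRNAs, *mt-Rnr1* (12S) had 278 CPM, 222 CPM and 277 CPM in input control dishes 4 to 6 and 286 CPM, 294 CPM and 281 CPM in input ethanol. Its 12 IP values ran from 13.3 CPM to 18.2 CPM with a median of 15.6 CPM. *mt-Rnr2* (16S) had 314 CPM, 214 CPM and 333 CPM in input control and 334 CPM, 372 CPM and 347 CPM in input ethanol, and 19.5 CPM to 29.5 CPM in IP with a median of 24.4 CPM. Dish 5 of the control medium was the low input library for each rRNA, and input and IP did not overlap. *mt-Rnr1* changed by −4.11 ± 0.07 (edgeR adjusted p = 1.8e-18) and *mt-Rnr2* by −3.75 ± 0.11 (edgeR adjusted p = 6.2e-15).

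The only tRNA tested with both strands together was *mt-Tp* (ENSMUSG00000064372, chrM:15356-15422, minus strand). It had 59.5 CPM, 52.6 CPM and 51.3 CPM in input control dishes 4 to 6 and 51.8 CPM, 54.4 CPM and 54.7 CPM in input ethanol. In IP the lowest, median and highest values were 0.838 CPM, 1.20 CPM and 1.60 CPM. Input was far above IP in every library. *mt-Tp* changed by −5.48 ± 0.06 (edgeR adjusted p = 1.3e-27), 44.7-fold, and 0 of the 24495 genes had a lower value.

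Compared per length, as CPM per kb, the pairs of the input were most frequent on *mt-Cytb* (5144 ± 239, SD, n = 6) and *mt-Co1* (4315 ± 261). In IP the order was reversed, with 329 ± 23.1 CPM per kb on *mt-Co1* (SD, n = 12) and 250.1 ± 20.3 CPM per kb on *mt-Cytb*. *mt-Nd1* followed in both fractions, with 3028 ± 129 and 104 ± 13.2 CPM per kb. In input, *mt-Nd2* had 2234 CPM per kb, *mt-Nd4* 2098 and *mt-Nd5* 1529. Far below were *mt-Co2* with 15.6 ± 2.28 CPM per kb, *mt-Atp6* with 7.41 ± 0.987, *mt-Co3* with 6.85 ± 0.995, *mt-Nd4l* with 1.41 ± 0.109, *mt-Nd3* with 1.20 ± 0.362 and *mt-Atp8* with 0.433 ± 0.230. These 6 are the mRNAs with exact copies in a nuclear chromosome over 98% or more of their windows of 100 bases. Pairs placed at more than 1 site are not counted, so a low count and a low level of these mRNAs cannot be told apart here. *mt-Nd4* and *mt-Co1* had such copies of 60.8% and 30.8% of their windows, and *mt-Cytb* and *mt-Nd1* of none. CPM per kb used the full length of each gene. The places of *mt-Co1* and *mt-Nd4* in the order per kb are therefore uncertain, as is the reversal between *mt-Co1* and *mt-Cytb*.

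The copied stretch is chr1:24611535-24616184 (minus strand, GRCm38), 4650 bases that match chrM:6394-11042 and its 4649 bases. It differs by 1 substitution, T9461C, counted from the start of chrM, and by 1 base in a run of A within *mt-Tr*, the tRNA for arginine, which has 8 A on chrM and 9 A on chr1. The longest run without a difference was 3067 bases. In the pairs of sequences that follow, written 5′ to 3′ along the plus strand of chrM and the minus strand of chr1, capitals mark the substituted base (chrM:9431-9491 and chr1:24613087-24613147) and the run of A (chrM:9808-9875, all of *mt-Tr*, and chr1:24612702-24612770), both in GRCm38.
mitochondrial copy around T9461C: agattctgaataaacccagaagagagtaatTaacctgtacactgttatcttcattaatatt
chr1 copy around T9461C: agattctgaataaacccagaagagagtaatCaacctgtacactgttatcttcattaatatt
mt-Tr on chrM: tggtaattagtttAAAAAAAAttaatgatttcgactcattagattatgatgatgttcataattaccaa
mt-Tr copy on chr1: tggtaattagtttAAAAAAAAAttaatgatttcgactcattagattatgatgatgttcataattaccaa

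Of the 37 members, 17 had an exact nuclear copy of some window of 100 bases and 20 had none. *mt-Nd4* had copies of 60.8% of its windows and *mt-Co1* of 30.8%, whereas *mt-Nd1*, *mt-Nd5*, *mt-Nd6*, *mt-Cytb* and *mt-Rnr1* had copies of none. Copied and uncopied mRNAs alike were lower in IP, such as uncopied *mt-Nd1* (−4.87) and copied *mt-Co2* (−4.68). Pseudogenes inside the chr1 stretch were also counted. *Gm28661*, which covers the copy of *mt-Co2*, had 916 to 1235 pairs per input library (median 997) and 24 to 66 per IP library (median 39), and *mt-Co2* itself had 797 to 1166 and 26 to 48. *Gm28661* was lower in IP (−4.61 ± 0.09). So were the other 9 annotated pseudogenes that overlap exact copies, from −3.30 for *Gm13340* to −5.00 for *Gm13341*. *Gm13341* had at most 3 pairs per IP library and *Gm13339* at most 2. *Gm13341* and *Gm13339* passed the count filter through input, so their lower values in IP are in part set by the filter. Both *Gm28661* and *mt-Co2* thus held pairs counted at a single site although their sequences match exactly. How these pairs were placed could not be checked without the alignments, so the origin of the counts of the copied genes, mitochondrial or nuclear, is uncertain. Without the members that have copies, the mitochondrial share was 1.30% in input and 0.0594% in IP, a ratio of 0.0457.

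The strand assigned to each pair was used to separate RNA of the plus strand from RNA of the minus strand. How often pairs were assigned to the wrong strand was not measured. Minus-strand RNA here means pairs assigned to that strand, among which misassigned pairs of plus-strand RNA cannot be told apart. *mt-Nd6* (ENSMUSG00000064368, chrM:13552-14070, minus strand) encodes the only mRNA of the minus strand, and 725361 of its pairs came from the opposite, plus strand and 735 from its own, so 99.9% were opposite to the gene. The counts of *mt-Nd6* with both strands together are therefore values of plus-strand RNA across that gene, and so are those of *mt-Tp*, with 30367 opposite pairs and 8 of its own. The same was seen at other minus-strand tRNAs, with 10182 opposite pairs on *mt-Te* (glutamate), 2737 on *mt-Ty* (tyrosine), 1230 on *mt-Tq* (glutamine), 963 on *mt-Ta* (alanine), 653 on *mt-Ts1* (serine) and 12 on *mt-Tc* (cysteine). At plus-strand mRNAs the pairs were nearly all sense. *mt-Nd1* had 1614642 sense and 231 opposite pairs (0.0143%), and *mt-Co1* 4006489 and 375. Over nuclear genes the opposite strand held 4.35% of pairs on average. Of the members, 18 had at least 10 sense counts and 16 at least 10 opposite counts. Below that lay 19 members in sense, 13 of them at 0, and 21 in opposite, 17 of them at 0.

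Apart from *mt-Tc*, which lies between *mt-Tn* and *mt-Ty* of the minus strand, these minus-strand genes border or overlap genes of the plus strand. *mt-Nd5* and *mt-Nd6* share 14 bases, *mt-Te* follows *mt-Nd6* without a gap and lies 5 bases before *mt-Cytb*, and *mt-Cytb*, *mt-Tt* and *mt-Tp* lie end to end. The sequences that follow are the plus strand of chrM in GRCm38, 5′ to 3′. Capitals mark the 14 shared bases in chrM:13522-13595, all 69 bases of *mt-Te* in chrM:14041-14169, all 67 bases of *mt-Tp* after *mt-Tt* in chrM:15289-15422, and the 43 bases shared by *mt-Atp8* and *mt-Atp6* in chrM:7897-7999.
mt-Nd5 and mt-Nd6: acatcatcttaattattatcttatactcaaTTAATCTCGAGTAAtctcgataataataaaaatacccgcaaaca
mt-Nd6 and mt-Te: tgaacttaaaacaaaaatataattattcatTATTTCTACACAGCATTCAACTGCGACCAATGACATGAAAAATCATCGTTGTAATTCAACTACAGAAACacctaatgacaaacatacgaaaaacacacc
mt-Tt and mt-Tp: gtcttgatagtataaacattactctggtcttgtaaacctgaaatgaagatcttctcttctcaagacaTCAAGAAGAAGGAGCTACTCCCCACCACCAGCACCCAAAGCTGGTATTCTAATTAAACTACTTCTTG
mt-Atp8 and mt-Atp6: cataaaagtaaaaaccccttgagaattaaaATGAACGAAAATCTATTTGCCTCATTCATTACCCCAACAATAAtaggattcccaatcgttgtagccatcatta

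**Figure D3:**
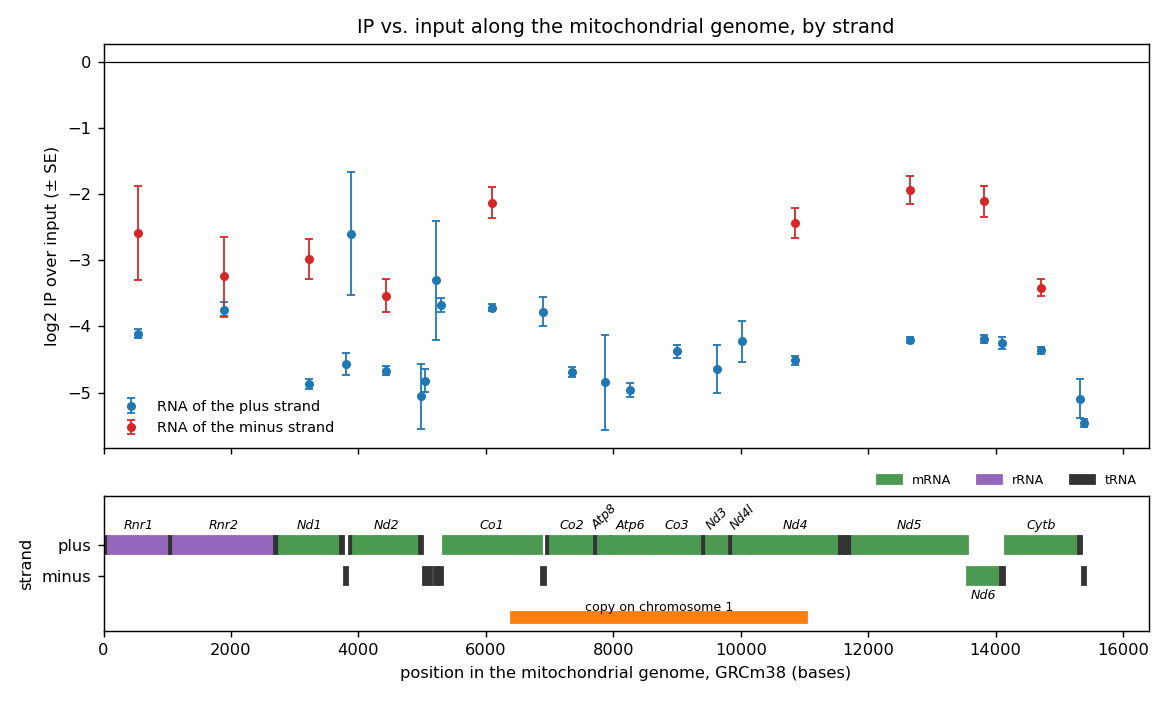
Log2 fold change of IP vs. input (points, with SE bars) against position on the mitochondrial genome for the 34 features counted by strand, blue for RNA of the plus strand and red for RNA of the minus strand, above a map of the genes and of the stretch copied on chr1. The 9 minus-strand features lie between −3.54 and −1.93, mostly above the 25 plus-strand features.

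Counted by strand, 34 features of the members had at least 10 counts. All 29 with at least 10 pairs in IP itself were lower in IP, where 26.9% of the 23734 features tested were called lower and 53.0% were called in either direction (27.6% lower of the 22381 with at least 10 pairs in IP). The other 5, sense *mt-Tm*, *mt-Tw* and *mt-Atp8* and the RNA opposite to *mt-Rnr1* and *mt-Tc*, passed through input, with 1 to 9 pairs in IP, and were also called lower, which the filter in part sets. The median was −4.20 over the 34 and −0.02 over all features. It was −4.38 over 25 features of plus-strand RNA, from −5.46 to −2.59, and −2.59 over 9 features of minus-strand RNA, from −3.54 to −1.93. With only the features that had at least 10 pairs in IP, the median was −4.38 over 21 of plus-strand RNA, from −5.46 to −3.67, and −2.71 over 8 of minus-strand RNA, so the ranges did not overlap. With the dishes paired, 32 of the 34 were called. *mt-Tc* in the opposite direction, with 12 pairs in all, changed by −3.30 ± 0.90 and was not called with the dishes paired (−2.85, edgeR adjusted p = 0.0808). *mt-Tm* (methionine, sense), also with 12 pairs, had 0 to 4 pairs per input library and changed by −2.59 ± 0.94. Its call was lost with the dishes paired (−2.08, edgeR adjusted p = 0.231), by DESeq2 (−2.53, adjusted p = 0.129), and without input control dish 4 (−2.28, adjusted p = 0.0562) or input ethanol dish 5 (−1.98, adjusted p = 0.120). Sense *mt-Tt* (threonine) had 41, 66 and 53 pairs in input control dishes 4 to 6 and 76, 68 and 69 in input ethanol. *mt-Tw* (tryptophan) and *mt-Tt*, both sense, had 0 to 2 and 0 to 7 pairs per IP library and changed by −5.06 ± 0.49 and −5.09 ± 0.29.

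*mt-Nd6* showed the contrast of strands in a single gene. Its sense pairs numbered 72, 64 and 75 in input control dishes 4 to 6 and 87, 118 and 90 in input ethanol, or 0.636 CPM to 1.31 CPM. IP control dishes 1 to 6 had 11, 10, 22, 42, 20 and 18 pairs, and IP ethanol dishes 1 to 6 had 24, 23, 10, 14, 12 and 23, or 0.0985 CPM to 0.468 CPM. Input was above IP in every library, by a smaller margin than for the plus-strand mRNAs. The sense RNA of *mt-Nd6* changed by −2.11 ± 0.23 (edgeR adjusted p = 3.7e-09) and the opposite RNA by −4.19 ± 0.06. Opposite to *mt-Nd5* the minus-strand RNA changed by −1.93 ± 0.21, opposite to *mt-Co1* by −2.12 ± 0.23 and opposite to *mt-Nd4* by −2.44 ± 0.23. Opposite to *mt-Rnr1* the change was −2.59 ± 0.71, opposite to *mt-Nd1* −2.98 ± 0.30 and opposite to *mt-Rnr2* −3.24 ± 0.60. Opposite to *mt-Cytb* and *mt-Nd2* it was −3.41 ± 0.13 and −3.54 ± 0.25. Of the plus-strand RNA on tRNA genes, that on *mt-Te* changed by −4.25 ± 0.09 and that on *mt-Tp* by −5.46 ± 0.06.

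The share of minus-strand RNA among mitochondrial pairs was 0.0276%, 0.0300% and 0.0297% in input control dishes 4 to 6 and 0.0253%, 0.0411% and 0.0319% in input ethanol. In IP control the lowest, median and highest shares were 0.0806%, 0.109% and 0.139%, and in IP ethanol 0.0765%, 0.0932% and 0.139%. Every IP library was above every input library. The means were 0.0309% in input (n = 6) and 0.104% in IP (n = 12), a ratio of 3.36 (two-sided exact permutation test, p = 0.000108, the smallest possible; 0.000485 adjusted over 9 tests). With dishes paired, IP was higher in 6 of 6 dishes (exact permutation of signs, p = 0.0313, the smallest possible). These shares rest on a median of 653 minus-strand pairs per input library and 126.5 per IP library, with a lowest count of 92. The part of misassigned plus-strand pairs in them was not measured. As CPM without TMM factors, plus-strand RNA averaged 25458 in input and 1331 in IP, and minus-strand RNA 7.88 and 1.38. Without *mt-Nd5* and *mt-Nd6* the minus-strand share was 0.0218% in input and 0.0512% in IP. The share of pairs opposite to the annotated gene, which the plus-strand RNA on *mt-Nd6* dominates, was 5.19% and 5.17% and was not different (exact permutation p = 0.847).

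Ethanol in IP asked whether 24 h of 50 mM ethanol altered the members in the RNA of the immunoprecipitate (6 dishes of each treatment). Mitochondrial RNA carried along there was not measured apart from RNA bound to tagged ribosomes. By edgeR, 0 of the 16 members were called, where 9.48% of the 24495 genes tested were called lower and 21.4% were called in either direction. At an unadjusted p below 0.05 there were 4, *mt-Rnr1*, *mt-Nd1*, *mt-Nd2* and *mt-Co1*, beside 7513 of the 24495 genes. DESeq2 called 3 of the 16 lower, beside 2713 of the 24495, *mt-Rnr1* (−0.16, adjusted p = 0.0319), *mt-Nd2* (−0.21, adjusted p = 0.0242) and *mt-Co1* (−0.12, adjusted p = 0.0163). Values of 14 of the 16 were below 0, and the median was −0.14 against 0.01 over all genes. *mt-Nd2* had 89.4 CPM, 97.2 CPM and 112 CPM as lowest, median and highest values in IP control and 75.6 CPM, 81.4 CPM and 100.1 CPM in IP ethanol, so the groups overlapped. Its value was −0.20 ± 0.08 (edgeR adjusted p = 0.0914). That of *mt-Nd1* was −0.21 ± 0.09 (0.141) and that of *mt-Co1* −0.11 ± 0.05 (0.163).

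*mt-Rnr1*, with 14.9 CPM, 17.0 CPM and 18.2 CPM in IP control and 13.3 CPM, 15.1 CPM and 16.9 CPM in IP ethanol (lowest, median and highest), also overlapped between treatments and had −0.15 ± 0.06 (edgeR adjusted p = 0.0849). *mt-Rnr2* had −0.13 ± 0.11, *mt-Nd4* −0.16 ± 0.08, *mt-Cytb* −0.11 ± 0.06 and *mt-Nd5* −0.06 ± 0.06. *mt-Nd6* had −0.03 ± 0.07, *mt-Co2* −0.36 ± 0.19, *mt-Co3* −0.31 ± 0.25 and *mt-Tp* −0.14 ± 0.13. The value nearest 0 among the mRNAs was that of *mt-Atp6* (0.01 ± 0.31), and the farthest was that of *mt-Atp8* (1.83 ± 1.30), which had 0 pairs in every IP control library and 1 pair in each of 2 IP ethanol libraries. *mt-Nd3* (−1.26 ± 0.97) and *mt-Nd4l* (−0.63 ± 0.83) rested on at most 4 pairs per IP library. The count of called members was 1 (*mt-Rnr1*) without IP control dish 1 or without IP control dish 2, and 2 without IP ethanol dish 1. With the replicate number as a block it was 8, all lower, beside 2546 of 24495 genes lower. Control and ethanol dishes share that number only. It was 6 with dishes 4 to 6 alone (*mt-Rnr1*, *mt-Rnr2*, *mt-Nd2*, *mt-Co1*, *mt-Nd4* and *mt-Cytb*, all lower, beside 1890 of 24495 genes lower). It was 2 of 17 without the count filter (2508 of 30364 genes lower) and 1 of 13 with the filterByExpr filter (2699 of 16839).

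The mitochondrial share of counted pairs in IP averaged 0.139% ± 0.00853 in control and 0.128% ± 0.0107 in ethanol (SD, n = 6 each), with overlapping ranges and a difference of −0.0113 (two-sided exact permutation test, p = 0.0736, adjusted 0.173). Without IP ethanol dish 1 the exact permutation p was 0.0216 and without IP ethanol dish 5 it was 0.0476. By strand, edgeR called 1 of the 34 features in IP, where 10.8% of the features tested were called lower and 22.3% in either direction, and DESeq2 called 5 lower, beside 2788 of 23734. It was the RNA opposite to *mt-Nd4*, with 8, 12, 27, 25, 14 and 11 pairs in IP control dishes 1 to 6 and 6, 11, 5, 10, 6 and 11 in IP ethanol dishes 1 to 6. Control dishes 3 and 4 were the highest, and the other dishes of the 2 treatments overlapped. It changed by −1.13 ± 0.36 (edgeR adjusted p = 0.0158), and the call was lost without IP control dish 3 (−0.93, adjusted p = 0.0847) or dish 4 (−0.99, adjusted p = 0.0667). The count by strand was 2 without IP control dish 1 or dish 2, 3 without IP ethanol dish 1 and 2 of 19 with filterByExpr (2723 of 16784 features lower). With the replicate number as a block it was 9, all lower (2812 of 23734 features lower).

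Ethanol in input asked the same of the whole supernatant (3 dishes of each treatment). By edgeR, 6 of the 16 members were higher and 0 lower, where 7.21% of the 24495 genes tested were called higher, 7.78% lower and 15.0% in either direction. The median of the 16 was 0.12 against 0.00 over all genes. *mt-Co2* had 9.21 CPM, 9.88 CPM and 9.76 CPM in control dishes 4 to 6 and 11.3 CPM, 13.5 CPM and 10.4 CPM in ethanol dishes 4 to 6, so the ethanol libraries were all higher, dish 5 most of all. It rose by 0.29 ± 0.07 (edgeR adjusted p = 0.000240). *mt-Atp6*, with the values given above, had all 3 ethanol libraries above all 3 control libraries and rose by 0.29 ± 0.09 (edgeR adjusted p = 0.0128). *mt-Co3* had 4.93 CPM, 4.77 CPM and 4.67 CPM in control and 5.89 CPM, 6.68 CPM and 5.30 CPM in ethanol, again without overlap, and rose by 0.31 ± 0.09 (edgeR adjusted p = 0.00538). Without ethanol dish 5 these calls were lost for *mt-Co2* (0.17, adjusted p = 0.118), *mt-Co3* (0.22, adjusted p = 0.151) and *mt-Atp6* (0.25, adjusted p = 0.0961), leaving 3 members called. *mt-Atp6* was also not called without control dish 6 (0.24, adjusted p = 0.133) or ethanol dish 4 (0.27, adjusted p = 0.0555).

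The other 3 calls were small. *mt-Cytb* had 5981 CPM, 5422 CPM and 5695 CPM in control dishes 4 to 6 and 6139.6 CPM, 6083 CPM and 5989 CPM in ethanol dishes 4 to 6, and *mt-Nd6* had 849 CPM, 745 CPM and 772 CPM in control and 842 CPM, 842 CPM and 846 CPM in ethanol. *mt-Nd5* had 2889 CPM, 2551 CPM and 2656 CPM in control and 2831 CPM, 2960 CPM and 2843 CPM in ethanol. Only *mt-Cytb* separated the treatments, by a narrow margin, and control dish 5 was the lowest library for each. *mt-Cytb* rose by 0.09 ± 0.02 (edgeR adjusted p = 0.000315), *mt-Nd6* by 0.09 ± 0.02 (0.000617) and *mt-Nd5* by 0.09 ± 0.02 (0.00109). Without control dish 5 the values were 0.05 for each, and none was called (edgeR adjusted p = 0.210 for *mt-Cytb*, 0.219 for *mt-Nd6* and 0.250 for *mt-Nd5*). Each of the 6 calls therefore ended without some library. DESeq2 called 4 (1494 of 24495 genes higher), without *mt-Nd5* (adjusted p = 0.285) and *mt-Nd6* (adjusted p = 0.266), and filterByExpr gave 4 of 15 (1680 of 17493 genes higher).

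Of the members not called in input, *mt-Rnr2* had 0.29 ± 0.20 (edgeR adjusted p = 0.512) and became called without control dish 5 (0.11, adjusted p = 0.000615). *mt-Co1* had 0.09 ± 0.06 (0.498) and became called without control dish 4 (0.14, adjusted p = 2.6e-07). *mt-Rnr1* had 0.14 ± 0.11, *mt-Nd4* 0.03 ± 0.02, *mt-Nd1* 0.02 ± 0.02 and *mt-Tp* −0.03 ± 0.03. *mt-Nd2* had the value nearest 0 among the mRNAs (0.01 ± 0.03), and *mt-Atp8* the farthest (0.57 ± 0.71), from 10, 4 and 5 pairs in control dishes and 4, 10 and 12 in ethanol dishes. *mt-Nd3* and *mt-Nd4l* had 0.27 and 0.16. *Gm28661*, the chr1 copy of *mt-Co2*, rose by 0.20 ± 0.06 (edgeR adjusted p = 0.0136). The mitochondrial share of counted pairs in input averaged 2.48% in control and 2.62% in ethanol, a difference of 0.136 (n = 3 each; two-sided exact permutation test, p = 0.3; 0.1 is the smallest possible). The difference was 0.0720 without control dish 5 and 0.215 without control dish 4.

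**Figure D4:**
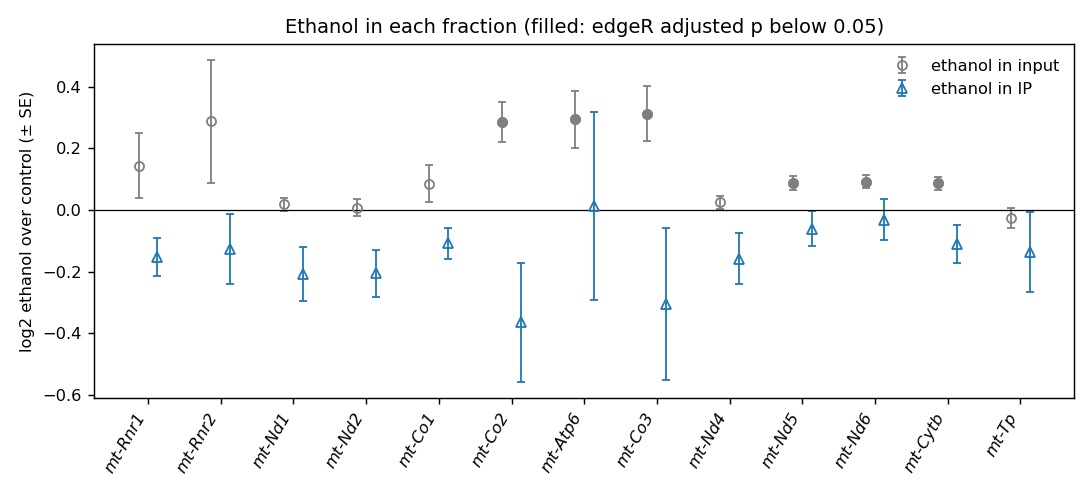
Log2 fold change of ethanol over control (SE bars) for 13 members in input (circles) and IP (triangles), filled where the edgeR adjusted p was below 0.05; *mt-Atp8*, *mt-Nd3* and *mt-Nd4l*, with few pairs, are not drawn. The filled points are the 6 members that were higher in input, and none is filled in IP.

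By strand, edgeR called 11 of the 34 features higher with ethanol in input and 0 lower, where 7.83% of the 23734 features tested were called higher, 8.36% lower and 16.2% in either direction. DESeq2 called 5, beside 1566 of 23734 higher. The sense RNA of *mt-Co2*, *mt-Atp6*, *mt-Co3*, *mt-Nd5* and *mt-Cytb* rose by 0.29, 0.30, 0.30, 0.10 and 0.09. Plus-strand RNA on *mt-Ta* numbered 134, 112 and 96 pairs in control dishes 4 to 6 and 185, 197 and 175 in ethanol dishes 4 to 6, without overlap, and rose by 0.82 ± 0.16 (edgeR adjusted p = 4.2e-06). Plus-strand RNA on *mt-Te* numbered 1540, 1400 and 1371 pairs in control and 1954, 1655 and 1299 in ethanol, and the treatments overlapped also in CPM, where ethanol dish 6 (16.3) was below control dish 4 (16.9). It rose by 0.30 ± 0.05 (edgeR adjusted p = 4.2e-06), while that on *mt-Nd6* had 0.12 ± 0.05 (edgeR adjusted p = 0.255). These calls on *mt-Ta* and *mt-Te* held without any single library, with values of 0.73 to 0.98 and 0.19 to 0.38, but that on *mt-Te* was lost by DESeq2 (0.29, adjusted p = 0.119) and with filterByExpr (0.30, adjusted p = 0.161). Plus-strand RNA on *mt-Ty* rose by 0.32 ± 0.10 (edgeR adjusted p = 0.0104), which was lost without control dish 5 (0.20, adjusted p = 0.246), control dish 6 (0.29, adjusted p = 0.0533) or ethanol dish 5 (0.24, adjusted p = 0.148), and by DESeq2 (0.31, adjusted p = 0.0582).

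Sense *mt-Tw* had 26, 10 and 4 pairs in control dishes 4 to 6 and 24, 28 and 46 in ethanol dishes 4 to 6, overlapping at dish 4. It rose by 1.42 ± 0.40 (edgeR adjusted p = 0.00446), and the call ended without control dish 6 (0.99, adjusted p = 0.113) or ethanol dish 6 (1.01, adjusted p = 0.170). Without control dish 4 the value was 2.37. Of minus-strand RNA, sense *mt-Nd6*, with the pairs given above, was higher in all 3 ethanol dishes and rose by 0.60 ± 0.20 (edgeR adjusted p = 0.0236). That call ended without control dish 5 (0.49, adjusted p = 0.151), ethanol dish 5 (0.48, adjusted p = 0.189) or ethanol dish 6 (0.60, adjusted p = 0.0535). RNA opposite to *mt-Nd5* had 2.07 CPM, 1.62 CPM and 2.15 CPM in control and 1.89 CPM, 3.50 CPM and 2.44 CPM in ethanol, so dish 5 stood out and the rest overlapped. It rose by 0.42 ± 0.13 (edgeR adjusted p = 0.0120), and the call ended without control dish 5 (0.30, adjusted p = 0.188) or ethanol dish 5 (0.15, adjusted p = 0.645). DESeq2 called neither sense *mt-Nd6* (adjusted p = 0.0512) nor RNA opposite to *mt-Nd5* (adjusted p = 0.114), and filterByExpr lost that opposite to *mt-Nd5* (adjusted p = 0.146). The count by strand was 7 without control dish 5 and 5 without ethanol dish 5. For the minus-strand share the two-sided exact permutation p between treatments was 0.649 in IP and 0.7 in input, where 3 dishes against 3 cannot go below 0.1.

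The difference of the ethanol effect between IP and input asked whether ethanol moved a member differently in the 2 fractions. By edgeR, 0 of the 16 members were called, where 0% of the 24495 genes tested were called in either direction. At an unadjusted p below 0.05 there were 5 members, *mt-Rnr1*, *mt-Co1*, *mt-Co2*, *mt-Co3* and *mt-Cytb*, beside 1459 of the 24495 genes, and DESeq2 called 0 members and 4 genes in all. The median of the 16 was −0.23 against 0.00 over all genes. *mt-Co2* had the smallest p, with −0.66 ± 0.18 (edgeR adjusted p = 0.675), and *mt-Rnr1* had −0.31 ± 0.12 (0.808). When input and IP of the same dish were paired in the 12 libraries of dishes 4 to 6, edgeR called 1 member, *mt-Rnr1* (−0.38 ± 0.05, adjusted p = 4.9e-13), among 102 genes of 24495. Its IP vs. input value was −4.11 in the fit of all libraries.

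Most subunits of the respiratory chain are encoded in the nucleus and translated on cytoplasmic ribosomes. Of 78 such genes tested, 27 were higher and 26 lower in IP (25.2% and 25.8% of all genes tested), with a median of −0.01, so they did not share the decrease of the mitochondrial mRNAs. Among them *Ndufv1* changed by 0.52 ± 0.02 (80.9 CPM ± 2.70 in input and 115.8 CPM in IP) and *Cox7a2l* by −0.77 ± 0.02. With ethanol, 68 of the 78 were lower in IP (median −0.14; 9.48% of all genes tested) and 48 in input (median −0.09; 7.78%), and 0 were higher in either fraction. *Ndufb2*, for a complex I subunit, changed by −0.61 ± 0.06 in IP and by −0.62 ± 0.09 in input. In input the 6 called members thus moved up while the called nuclear subunits moved down. Of 7 nuclear noncoding RNAs tested, which are not translated, 6 were lower in IP (25.8% of all genes tested), with a median of −1.45. *Neat1* fell from 81.9 CPM ± 1.86 in input to 21.2 CPM ± 1.86 in IP (−1.95 ± 0.05).

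Markers of cell types moved between the fractions as well, where over all genes tested 25.2% were called higher in IP and 25.8% lower. The summed level of 10 astrocyte genes averaged 1564 CPM in input and 2469.9 CPM in IP, 9 were higher and 1 lower in IP, and the most abundant was *Glul*. *Aldh1l1*, whose promoter drives the tag, rose by 1.05 ± 0.02, from 181 CPM ± 9.87 to 375 CPM ± 14.9. The sum of 8 microglia genes was 95.4 CPM in input and 28.2 CPM in IP, 7 were lower in IP, none was at 0, the most abundant was *Cd68* and *Csf1r* changed by −2.56 ± 0.05. For vascular and fibroblast genes the sums were 1295 CPM and 1483 CPM, whereas the median log2 fold change was −0.54. Of 9 tested, 3 were higher, near the share over all genes, and 5 were lower. *Acta2* was the most abundant and *Cldn5* was at 0. The part of these cells in the mitochondrial result was not tested.

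Ethanol moved markers of several cell types as well, where over all genes 7.21% were called higher and 7.78% lower in input and 11.9% higher and 9.48% lower in IP. A count of 1 in a list of 9 lies near these shares. In input, 4 of the 10 astrocyte genes were higher and 4 lower (sum 1555 CPM in control and 1572 CPM in ethanol), with −0.13 for *Aldh1l1* and 0.17 for *Slc1a2*, and in IP 4 were higher and 1 lower (2428 CPM and 2512 CPM). Of the 8 microglia genes, 2 were higher in each fraction (91.7 CPM and 99.1 CPM in input, 26.1 CPM and 30.3 CPM in IP), with 0.22 for *Csf1r* in input. Of the 9 oligodendrocyte lineage genes, 3 were higher and 1 lower in input (175 CPM and 163.5 CPM) and 2 and 1 in IP (280.1 CPM and 261 CPM). Of the 9 neuron genes, 1 was higher and 1 lower in input (114 CPM and 105 CPM) and 0 and 1 in IP (141 CPM and 127 CPM). Of the 9 vascular and fibroblast genes tested, 2 were lower in each fraction, with medians of −0.06 in input and −0.02 in IP. Their sum went from 1494 CPM to 1096 CPM in input and from 1744 CPM to 1222 CPM in IP, and *Acta2* alone from 1186 CPM to 789.6 CPM and from 1589 CPM to 1069 CPM. Several of these values were as large as those of the called members, and the part of these cells in the ethanol results was not tested.

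In IP vs. input the share of pairs left by the tagged ribosomes and the share carried along from other RNA in the lysate were not measured apart in these libraries. Per their methods, the submitters checked the background without antibody and with wild-type tissue. Only qRT-PCR picked up RNA there, in traces, and a fluorescence assay picked up none. The supernatant at 10,000 g was the only input, so the mitochondrial RNA of the pellet was not measured. In the ethanol comparisons, levels are relative to all counted RNA of a library, and absolute amounts per cell were not measured. With 3 dishes per treatment, all 6 calls in input with both strands together ended without some library, as stated.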

How the data were processed

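Gene counts came from 18 libraries of stranded total RNA. Per the submitters' notes and methods, the authors trimmed reads with Trimmomatic, aligned them with STAR to GRCm38 (mm10) and converted files with SAMtools, with versions not given in the sources used here. The authors deposited raw counts of read pairs per gene in a table over both strands and in files of single libraries with each strand apart, and 0 cells differed between the table and the single files. In the single files the strand of the RNA is the last count given, and pairs on more than 1 gene or at several places are not counted. For input the multiply mapped pairs averaged 4.65% (control) and 4.73% (ethanol), and for IP 3.13% and 2.99%. The ambiguous pairs averaged 5.50%.

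Genes with at least 10 counts over the 18 libraries were tested (24495 genes with both strands together, and 23734 features when sense counts of all genes and opposite-strand counts of the members were used) with edgeR 4.0.16 (limma 3.58.1, R 4.3.3), TMM scaling, robust quasi-likelihood fits and Benjamini-Hochberg adjustment at 0.05. IP vs. input had a term for treatment. The SE is the size of the log2 fold change over the square root of the F statistic. Scripts were tested on simulated data with known fold changes. Shares were compared by two-sided exact permutation tests, and between fractions also with dishes paired, a test added after the data had been seen. DESeq2 1.42.0 was the other tool. Tables and figures used numpy 2.4.6, pandas 2.3.3 and scipy 1.17.1. CPM used TMM library sizes, and per kb they were divided by gene length.

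Exact copies of windows of 100 bases (50 and 150 as alternatives) were searched in both strands of GRCm38. Inputs and IPs of the same treatment and number came from the same dish, and this pairing was checked by correlation. Alternatives were other tools, scalings, filters, strand counts, pairing and libraries left out, and the minus-strand share was added after the data had been seen. Members and lists were chosen with earlier results of these data known.

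Outside the members, genes of each list were named from the 2 largest increases and the 2 largest decreases called in a comparison with a mean of at least 5 CPM. In marker lists the most abundant gene and any gene at 0 were named as well, and nuclear genes with exact mitochondrial copies were named for those copies. The lists were nuclear subunits of the respiratory chain, proteins of mitochondrial ribosomes, mitochondrial RNA factors, mitochondrial DNA factors, nuclear noncoding RNAs, and markers of astrocytes, microglia, the oligodendrocyte lineage, neurons, and vascular cells and fibroblasts. Over all genes tested, 25.2% were called higher and 25.8% lower in IP. The shares with ethanol were 11.9% and 9.48% in IP and 7.21% and 7.78% in input. Several counts that follow lie near these shares, such as 10 of 42 RNA factors lower in IP (23.8%). Of 77 mitochondrial ribosomal proteins tested, 22 were higher and 30 lower in IP (28.6% and 39%). With ethanol in IP 0 were higher and 39 lower (50.6%), and with ethanol in input 1 and 17 (1.3% and 22.1%). Of 42 RNA factors tested, 16 were higher and 10 lower in IP, 0 and 6 with ethanol in IP, and 1 and 4 with ethanol in input. Of 21 DNA factors, 8 were higher and 6 lower in IP, 4 and 3 with ethanol in IP, and 1 and 2 with ethanol in input. Of 7 noncoding RNAs tested, 0 were called with ethanol in IP and 1 was higher with ethanol in input. The 9 oligodendrocyte lineage genes summed to 169 CPM in input and 271 CPM in IP, with 4 higher and 4 lower. The 9 neuron genes summed to 109.6 CPM and 134 CPM, with 4 higher and 2 lower. The difference of the ethanol effect called 0 genes in every list.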

Additional observations from a re-analysis of the deposited data

Results flagged for a closer look

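An outlier test within groups of CPM (Dixon, the gap to the nearest library over the range) was run on 34 groups of 6 libraries and gave 3 values. *mt-Cytb* had 331 CPM in IP control dish 3 (gap over range 0.651), where the nearest library had 301 CPM and the far end was 285 CPM. *mt-Nd4* had 159 CPM in the same library (0.639), with 136 CPM nearest and 122 CPM at the far end. *mt-Atp6* had 0.236 CPM in IP ethanol dish 3 (0.664), with 0.160 CPM nearest and 0.121 CPM at the far end. By chance the test flags about 1 in 20 groups. The libraries were kept.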

How the results depend on the processing

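IP vs. input called 16 of the 16 members lower with every library left out and under each other setting of the same counts, apart from settings that tested other numbers: filterByExpr called 15 of 15, sense counts 18 of 18, and no filter 16 of 19. By strand it called 33 to 34 of 34 with libraries left out, 33 of 34 by DESeq2, 32 of 34 with dishes paired and 28 of 28 with filterByExpr. The share of mitochondrial pairs kept its direction throughout, with a difference from −2.46 to −2.40 with libraries left out, and averaged 2.10% and 0.112% of all pairs.

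Ethanol in IP called 0 members, 0 to 2 with libraries left out, 3 by DESeq2, 2 without a filter, 1 with filterByExpr and 6 with dishes 4 to 6 alone. Control and ethanol dishes share a number only. Their libraries of the same number correlated at −0.142 to 0.374 over 11378 genes, and in 5 of 9 cases (input 5 and 6, IP 2, 3 and 5) the library of the same number was the closest. Input and IP of the same dish correlated at 0.0387 to 0.207, and in 6 of 6 cases the same dish was the closest. With the number as a block, 8 members were called in IP, all lower, beside 2546 of 24495 genes lower. By strand that block called 9 in place of 1, all lower, beside 2812 of 23734 features lower. By strand the count was 5 by DESeq2, 2 with filterByExpr and 0 to 3 with libraries left out. The difference in mitochondrial share ran from −0.0141 to −0.00823.

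Ethanol in input called 6 members, 3 to 7 with libraries left out, and by strand 11, 5 to 13 with libraries left out and 5 by DESeq2. *mt-Nd1* ran from −0.0226 to 0.0665 and *mt-Tp* from −0.0684 to 0.0418, each turning direction. For *mt-Nd1* the value was −0.0226 without control dish 5 (edgeR adjusted p = 0.704), and for *mt-Tp* it was 0.0418 without control dish 4 (0.573) and 0.00195 without ethanol dish 4 (0.990). The share in input with ethanol ran from 0.0720 to 0.215. The difference test called 1 member with dishes paired, and pairing ended the calls of *mt-Tc* and *mt-Tm* by strand.

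The difference in opposite-strand share between IP and input was −0.0221, ran from −0.0648 to 0.0233 with libraries left out, and was 0.125 with mRNAs alone (exact permutation p = 0.325) and 0.00639 without rRNAs (p = 0.967). With dishes paired it was −0.0887 (exact permutation of signs, p = 0.313). The minus-strand share with ethanol in input ran from −0.000532 to 0.00738. The number of members with exact copies was 17, 23 with windows of 50 bases and 13 with windows of 150 bases. The cause of these shifts was not tested.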
